A study of Ambystoma mexicanum with 7 samples.

Results

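The first 20 Mb of the 14 p arms of the axolotl genome held 3236 ATAC-seq peaks, of 211537 peaks in the 3 group lists together. The members are the peaks of a p arm that end at or before base 20000000 of the arm as the files count it. In arms cut into segments they lie in segment 0. They comprised 2419 blastema peaks, 485 intact peaks and 332 systemically activated peaks, which were 1.44%, 1.88% and 1.92% of their whole lists. The 14 stretches add up to 280 Mb, or 2.37% of the p arms, whose total length up to their last peak was 11.83 Gb. The rest of the same arms held 87251 peaks and served as the comparison.

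The axolotl, Ambystoma mexicanum, is a salamander that regrows amputated limbs, and its genome is very large and rich in repeats. All samples were wild type, and whether the samples within a group are separate animals is not stated in the labels. Homeostatic limb gave the 3 intact samples. The 2 systemically activated samples came from limbs of amputated animals, and in such animals cells of limbs that were not themselves cut re-enter the cell cycle. The 2 blastema samples were blastema together with wound epidermis, that is, the progenitor cells that gather at a stump and the skin that covers them. Homeostatic and systemically activated limbs were taken at 14 days after amputation per the series design, and for the blastema samples no day is stated. Per the labels, 10000 live cells with a DNA content of 4C were sorted for each library, which is what a cell holds after DNA replication, and all groups share this sort.

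In ATAC-seq the transposase Tn5 cuts DNA where nucleosomes leave it exposed, so a peak marks accessible chromatin, such as an active promoter or enhancer. Accessible sites are not spread evenly along chromosomes. Gene-rich stretches carry many of them, whereas the compact heterochromatin around centromeres carries few. The sources used here do not say which end of an arm base 1 lies at, so the stretches are called arm starts and not chromosome ends. The genes and sequences at these peaks were not analysed here.

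Each group had 1 list made from all its samples, so no sample had a value of its own and no difference could be set against a spread between samples. The lists differ greatly in length, with 168368 blastema, 25843 intact and 17326 systemically activated peaks. Levels were therefore compared between stretches within a list. The test was a two-sided permutation test over the p arms that flips the sign of each arm's value in all 16384 combinations. Its p-values were adjusted by Benjamini-Hochberg over 17 tests, and they describe the spread between arms of these lists, not between animals. None of the 17 passed an adjusted p of 0.05, 6 had an unadjusted p below 0.05, and the lowest adjusted p was 0.128. No second tool was run.

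Most arm starts were richer in peaks than the rest of the same arm. Pooled over arms, the starts held 8.64 blastema peaks per Mb against 6.04 in the rest, 1.73 intact peaks per Mb against 0.904, and 1.19 systemically activated peaks per Mb against 0.609. The start was the denser stretch on 11 of 14 arms in the blastema list, on 10 in the intact list and on 12 in the systemically activated list. Over all 587 windows of 20 Mb that fit in the p arms, 45.0% of windows held more blastema peaks per Mb than the rest of their arm, 42.8% more intact peaks and 41.9% more systemically activated peaks. The spread between arms was too wide for a call. The mean log2 ratio of the start to the rest, with 0.5 peaks added to each count, was 0.26 ± 1.04 (SD, n = 14 arms) in the blastema list (adjusted p = 0.424). In the same permutation test it was 0.57 ± 1.19 in the intact list (adjusted p = 0.182) and 0.51 ± 1.45 in the systemically activated list (adjusted p = 0.294). With peaks of a fold of at least 5 only, the fold being the enrichment the authors' peak caller gave each peak, the means of the permutation test were 1.04 in blastema (12 of 14 arms higher, adjusted p = 0.0617), 0.90 in intact (12 higher, adjusted p = 0.0651) and 0.62 in systemically activated limb (12 higher, adjusted p = 0.240). Among the planned settings described at the end, this one gave the lowest adjusted p in each list. It also gave the highest means in blastema and intact limb. The adjustment does not cover the choice among settings.

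**Figure D1:**
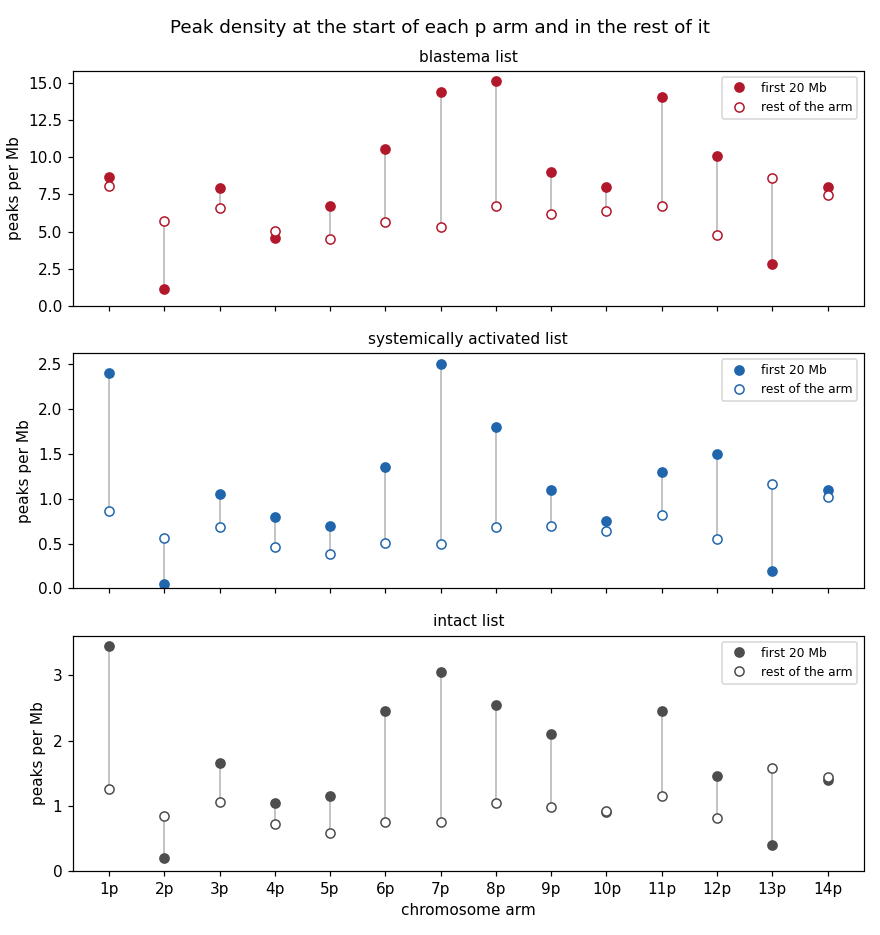
Peaks per Mb (y axis) in the first 20 Mb (filled) and the rest (open) of each p arm (x axis), 1 panel per list. The start of 7p stands at 14.4 blastema, 2.50 systemically activated and 3.05 intact peaks per Mb, far above the rest of that arm, while the starts of 2p and 13p stand below the rest in every panel.

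Counts per arm start ran from 23 to 302 blastema peaks with a median of 166.5, from 4 to 69 intact peaks with a median of 31, and from 1 to 50 systemically activated peaks with a median of 22. Arm 7p had the highest ratio of the start to the rest in each list, at 2.70 in blastema, 4.07 in intact and 5.06 in systemically activated limb. Its start held 287 blastema, 61 intact and 50 systemically activated peaks. The highest blastema count was on 8p, with 302 peaks, where the ratios were 2.24, 2.45 and 2.63 in the same order of lists. Starts of 6p, 11p and 12p were also denser in each list, with blastema ratios of 1.86, 2.09 and 2.09.

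Arms 2p and 13p went the other way by a wide margin. The start of 2p held 23 blastema, 4 intact and 1 systemically activated peak, and its densities were 0.201, 0.239 and 0.0895 times those of the rest of the arm. The start of 13p held 57, 8 and 4 peaks, at 0.332, 0.253 and 0.172 times the rest. In the start of 2p, 11 of the 20 bins of 1 Mb held no blastema peak and 19 held no systemically activated peak. In the rest of that arm these bins made up 11.1% and 64.2%. The sparse stretch of 2p ran past the 20 Mb limit. Between 20 and 40 Mb that arm held 2 blastema peaks, both before 25 Mb, and no peak of either limb list. The longer all-sample list was thin there too, with 8 to 14 peaks in each 5 Mb bin from 20 to 40 Mb. With both arms left out, a setting chosen after seeing the data and given without a test, the mean log2 ratios were 0.62 ± 0.50 in blastema, 0.98 ± 0.62 in intact and 1.03 ± 0.62 in systemically activated limb (SD, n = 12 arms).

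The density of a start was ranked among all 20 Mb windows of its arm. On 11p the start was the densest of 15 windows in the blastema and intact lists, and on 12p it was the densest of 14 in the blastema and systemically activated lists. On 7p it was the densest of 45 in both limb lists and second in blastema. At least 90% of the other windows of the arm were lower on 5 arms in the blastema list, 7 in the intact list and 6 in the systemically activated list. By its definition, roughly 10% of all windows of an arm meet this mark, and no test of these counts was made. The start of 13p was the lowest of 12 windows in every list. That of 2p ranked 68 of 69 in the blastema and systemically activated lists and 67 in the intact list.

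**Figure D2:**
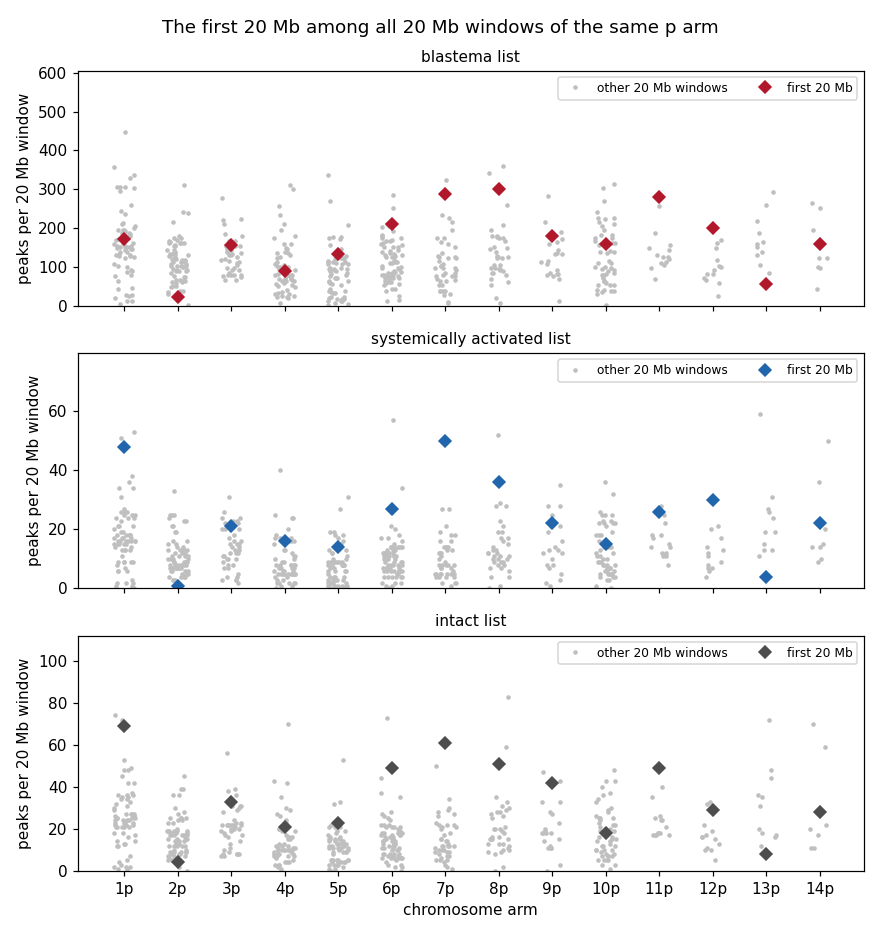
Peaks per 20 Mb window (y axis) for each p arm (x axis), with the first window as a diamond and all other windows as grey points, 1 panel per list. The first window tops its arm on 7p in both limb lists and on 12p in the blastema and systemically activated lists, and lies at the bottom on 13p in all 3.

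The higher density was not limited to the first 20 Mb. In 5 Mb bins averaged over the 14 arms, blastema density was 6.86 peaks per Mb in the first bin, 10.4 between 10 and 15 Mb and 12.4 between 55 and 60 Mb, and 8.16 between 95 and 100 Mb. Intact density was 1.59 in the first bin, 2.10 between 55 and 60 Mb and 1.20 between 95 and 100 Mb. The systemically activated list had 1.26, 1.37 and 0.700 in the same bins. When the start was set against the next 20 Mb in place of the whole rest, it was denser on 7 of 14 arms in each list. By the permutation test the mean log2 ratio was then -0.05 in blastema (adjusted p = 0.897), 0.21 in intact (adjusted p = 0.783) and 0.11 in systemically activated limb (adjusted p = 0.816). At the limit itself, the bins from 15 to 20 Mb and from 20 to 25 Mb held 615 and 685 blastema, 118 and 122 intact, and 86 and 83 systemically activated peaks. The blastema peak that ended last before the limit was on 14p, 16919 bases inside it, with a fold of 3.26, and the first one past it was on 8p, 7318 bases outside, with a fold of 3.45. The same pair was on 1p (fold 5.96) and 8p (fold 7.97) in the intact list and on 3p (fold 5.09) and 8p (fold 10.0) in the systemically activated list. The fold is the authors' enrichment of the pileup at the summit over the background of the same list.

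**Figure D3:**
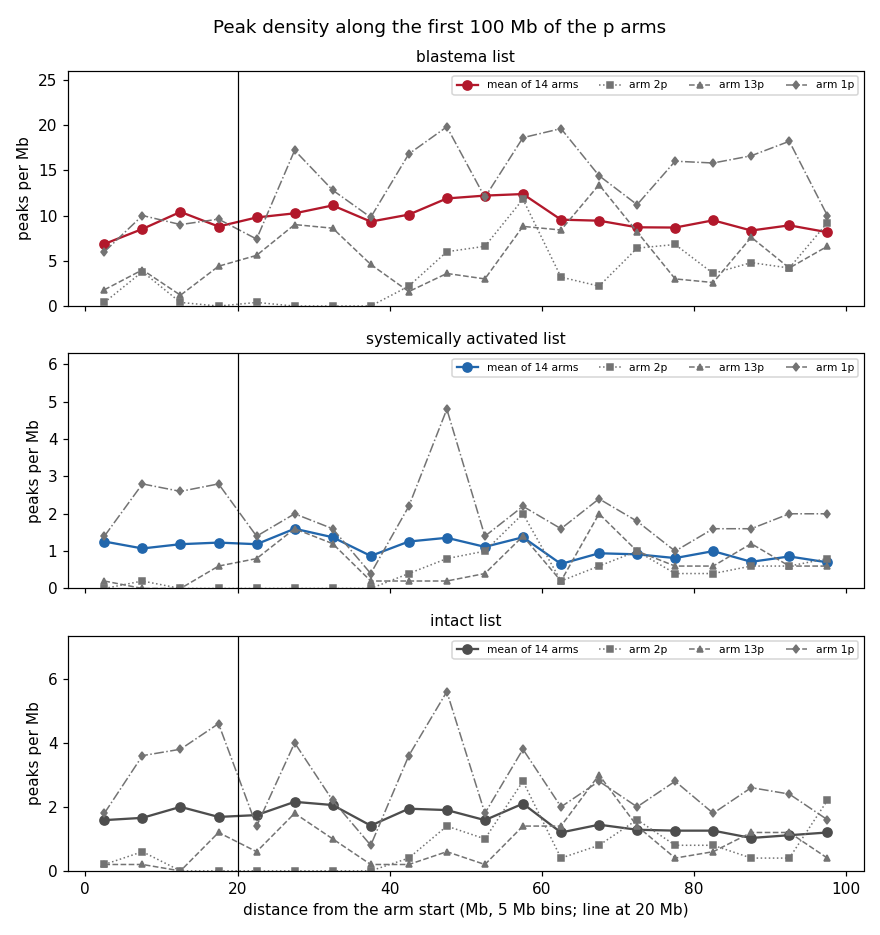
Peaks per Mb (y axis) in 5 Mb bins by distance from the arm start in Mb (x axis), as the mean of the 14 p arms (coloured) and for arms 2p, 13p and 1p (grey), 1 panel per list with a line at 20 Mb. The mean blastema curve reaches 12.4 between 55 and 60 Mb, and arm 2p stays near 0 up to 40 Mb.

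The 2 ends of the arms differed in a way that set 2p and 13p apart again. The last 20 Mb up to the last peak of an arm, a stretch chosen after seeing the data, held 1202 blastema, 218 intact and 153 systemically activated peaks, against 2419, 485 and 332 in the starts. The start held more peaks than the end on 12 of 14 arms in every list, and the exceptions were 2p and 13p in every list. On 2p the end held 147 blastema, 47 intact and 34 systemically activated peaks. On 13p it held 252, 48 and 31.

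The starts of the q arms were poorer in peaks on most chromosomes. The first 20 Mb of the 14 q arms held 1384 blastema, 209 intact and 126 systemically activated peaks. The p arm start had more peaks than the q arm start on 12 of 14 chromosomes in every list, with chromosomes 2 and 13 as the exceptions. The start of 2q held 257 blastema, 51 intact and 37 systemically activated peaks, the highest count among the q arms in all 3 lists. In the permutation test over chromosomes the mean log2 ratio of p to q starts was 0.71 ± 1.44 in blastema (adjusted p = 0.182), 1.08 ± 1.55 in intact (adjusted p = 0.128) and 1.26 ± 2.01 in systemically activated limb (adjusted p = 0.128). Chromosome 2 had the lowest ratio of the 14 in every list. Without it the means were 1.03, 1.43 and 1.71, with 12 of 13 chromosomes higher. Each had an adjusted p of 0.00553 in the permutation test. It was the only chromosome whose omission brought an adjusted p below 0.05. With another left out, the adjusted p reached up to 0.332 in blastema and 0.238 in both limb lists. The adjustment does not cover the choice of the chromosome left out.

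The limb lists ordered the arms more alike than either did with blastema. Across the 14 arms the log2 density ratios had a Pearson r of 0.97 (Spearman 0.86) between the limb lists, 0.92 (0.75) between blastema and intact, and 0.93 (0.70) between blastema and systemically activated limb. Without 2p and 13p these were 0.88 (Spearman 0.79), 0.64 (0.62) and 0.64 (0.52). The points share the assembly and the arm lengths, and no test was made of them. The limb lists are also closer in length to each other, at 25843 and 17326 peaks, than to blastema at 168368. The part of list length in these correlations was not tested.

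On arm 1p the limb lists and blastema lay far apart. Its start held 2.77 times the systemically activated density and 2.74 times the intact density of the rest of the arm, but 1.08 times the blastema density. In counts these were 48, 69 and 173 peaks. On 4p the same ratios were 1.73, 1.44 and 0.906. In the all-sample list, which is longer and includes the limb samples, the ratio was 0.945 on 1p and 0.898 on 4p. The part of list length in these contrasts was not tested. Over all arms the log2 ratio of blastema was below that of intact limb by a mean of -0.32 ± 0.48 (SD, n = 14, 10 arms lower, adjusted p = 0.128) and below that of systemically activated limb by -0.25 ± 0.60 (10 arms lower, adjusted p = 0.250). The limb lists differed in the permutation test by -0.07 ± 0.42 (systemically activated minus intact, adjusted p = 0.608). The sign depended on which peaks were counted. With a minimum fold of 5, the same permutation test put the blastema ratio above that of systemically activated limb by a mean of 0.43, higher on 13 of 14 arms (adjusted p = 0.00899), and above that of intact limb by 0.14 (adjusted p = 0.174). The median fold in the starts was 3.85 in blastema, 6.10 in intact and 6.54 in systemically activated limb. In the rest it was 3.63, 5.24 and 5.67. A fold cut of 5 therefore removed most blastema peaks but fewer than that of either limb list. The part of this in the change of sign was not tested, and the adjustment does not cover the choice among settings. The lists differ in depth, so these values compare lists and not conditions.

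Pooled over arms, peaks of the starts were stronger for their list, but in blastema the arms were divided. The strength used here is the −log10 q that the authors' peak caller gave each peak. Of the blastema peaks of the starts, 380 or 15.7% were in the top 10% of the whole blastema list, against 9.67% in the rest of the p arms. The shares were 24.5% against 9.51% in the intact list, with 119 such peaks, and 21.1% against 9.49% in the systemically activated list, with 70. The median −log10 q was 4.50 against 4.11 in blastema, 6.55 against 5.19 in intact and 6.70 against 5.24 in systemically activated limb. The share in the top 10% exceeded that of the rest on 9 of 14 arms in blastema, 11 in intact and 10 in systemically activated limb, and no test of it was made. The median −log10 q of the start exceeded that of the rest on 7 of 14 arms in blastema and was lower on 6, and it was higher on 10 arms in intact and 11 in systemically activated limb.

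Arm 1p led in blastema, where 60 of its 173 start peaks, or 34.7%, were in the top 10% of the list. In the intact list 7p led with 24 of 61 (39.3%), followed by 5p with 9 of 23 (39.1%). In the systemically activated list 5p had 5 of 14 (35.7%) and 8p 11 of 36 (30.6%). On 2p no start peak of any list was in the top 10%, and on 13p none of either limb list was.

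**Figure D4:**
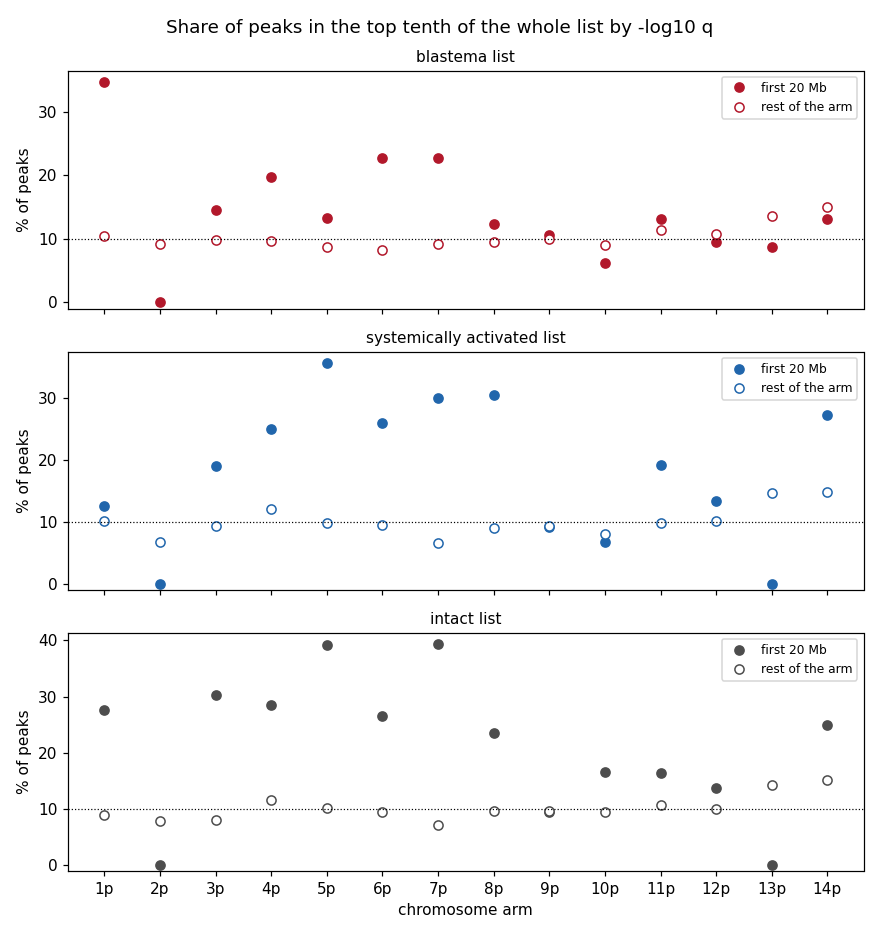
Share of peaks in the top 10% of the whole list by −log10 q (y axis, %) in the first 20 Mb (filled) and the rest (open) of each p arm (x axis), 1 panel per list, with a dotted line at 10%. Arm 1p stands at 34.7% in blastema and 7p at 39.3% in intact limb, and 2p is at 0 in all panels.

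The median local background was lower in the starts of each list, and the median pileup was close to that of the rest. Pileup and background at each summit were recovered from the authors' fold and p. They are given without a unit, since fold and p do not tell whether reads or fragments were counted. The median background was 4.44 in the blastema starts against 5.00 in the rest, 1.74 against 2.12 in intact and 1.38 against 1.62 in systemically activated limb. The median pileup was 20 against 21, 16 against 16, and 15 against 14. These are medians over all peaks, and the strongest peaks were not looked at apart. The part of background or pileup in the strength of the start peaks was not tested.

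Peaks of the starts were on average somewhat wider in the limb lists. Pooled over arms, the median width was 380 bases against 324.5 in the rest for systemically activated limb, 382 against 347 for intact and 348 against 326 for blastema. Per arm, the mean log2 ratio of median widths was 0.18 ± 0.24 in systemically activated limb (SD, n = 12 arms with at least 5 peaks, 10 wider, adjusted p = 0.128). Without 12p the systemically activated mean was 0.21, past the threshold of the permutation test (adjusted p = 0.0415), and no other omission of an arm passed it. In the same permutation test the mean was 0.09 ± 0.29 in intact limb (n = 13, 8 wider and 5 narrower, adjusted p = 0.353). In blastema it was 0.02 ± 0.17 (n = 14, 6 wider and 8 narrower, adjusted p = 0.722). The 7p start again led the limb lists, with a median width of 589 bases in intact and 523 bases in systemically activated limb. Peaks of at least 1000 bases made up 6.86% of blastema start peaks (166 peaks) against 5.49% in the rest, 3.71% against 1.76% in intact (18 peaks) and 0.904% against 0.668% in systemically activated limb (3 peaks).

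Peaks of the starts lay closer together by the median distance, but in systemically activated limb not by the share with a neighbour within 5 kb. The median distance from a blastema peak to the nearest other blastema peak was 14.1 kb in the starts and 22.2 kb in the rest. In intact limb it was 111 kb against 193 kb, and in systemically activated limb 162 kb against 288 kb. Neighbours within 5 kb were found for 28.4% of blastema start peaks against 23.2%, 14.8% of intact against 12.2%, and 9.94% of systemically activated against 11.2%. Of the 280 bins of 1 Mb in the starts, 8.93% held no blastema peak against 12.6% in the rest, 36.1% no intact peak against 52.5%, and 45.0% no systemically activated peak against 63.0%.

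The lists shared more of their peaks in the starts than in the rest when peaks were pooled. An overlap of 1 base or more counted as sharing, and intervals are exact 95% binomial intervals that cover counting error only. Of the 332 systemically activated start peaks, 279 had an intact counterpart, a share of 84.0% (79.6 to 87.8), against 75.5% in the rest and 75.9% on the p arms as a whole. A blastema peak overlapped 323 of them, or 97.3% (94.9 to 98.8), against 93.5% in the rest and 93.7% on the p arms. Of the 485 intact start peaks, 275 had a systemically activated counterpart, a share of 56.7% (52.2 to 61.2), against 50.2% in the rest and 50.5% on the p arms. A blastema peak overlapped 454, or 93.6% (91.0 to 95.6), against 89.3% in the rest and 89.5% on the p arms. Of the 2419 blastema start peaks, 473 or 19.6% (18.0 to 21.2) were overlapped by a peak of either limb list, against 14.4% in the rest and 14.6% on the p arms.

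Arm by arm, with all peaks counted, the gain in sharing did not pass the test. The mean difference between the start and the rest of an arm was 6.49 ± 16.7 percentage points for systemically activated peaks in intact limb (SD, n = 12 arms, 9 higher, adjusted p = 0.294) and 3.94 ± 6.01 points for the same peaks in blastema (10 higher, adjusted p = 0.137). For intact peaks it was 3.88 ± 12.8 points in systemically activated limb (n = 13, 9 higher, adjusted p = 0.353) and 3.29 ± 4.98 points in blastema (10 higher, adjusted p = 0.128). For blastema peaks in either limb list it was 3.48 ± 7.52 points (n = 14, 9 higher, adjusted p = 0.182). With a minimum fold of 5 in every list, both gains of overlap in blastema passed the permutation test, at 25.9 points for systemically activated peaks (11 of 12 arms higher, adjusted p = 0.00899) and 24.8 points for intact peaks (12 of 13 higher, adjusted p = 0.0083). In the same permutation test the other gains at that fold were 14.9 points for systemically activated peaks in intact limb (adjusted p = 0.0519), 5.54 points for intact peaks in systemically activated limb (adjusted p = 0.192) and 11.5 points for blastema peaks in either limb list (adjusted p = 0.0519). The cut also removes peaks of the overlapped list, and the median blastema fold was 3.85 in the starts and 3.63 in the rest. The part of this removal in the gains was not tested, and the adjustment does not cover the choice among settings. The differences with all peaks counted were also taken within deciles of −log10 q. There they were -1.33, 1.38, -4.00, 1.09 and 0.675 points, in the order of the 5 mean differences given first. Those between the limb lists turned in sign (permutation test, adjusted p from 0.237 to 0.757 over the 5). The part of strength in the differences was not tested.

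**Figure D5:**
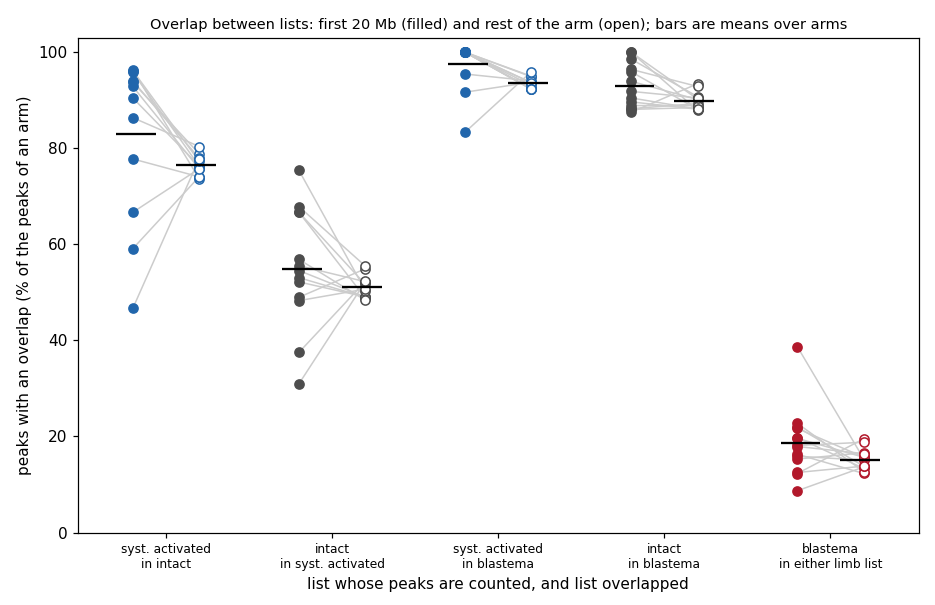
Share of the peaks of an arm that another list overlaps (y axis, %) in the first 20 Mb (filled) and in the rest (open) for 5 pairs of lists (x axis). Each line joins the stretches of 1 arm with at least 5 start peaks and each bar is the mean over arms. The starts scatter widely, from 46.7% to 96.3% for systemically activated peaks in intact limb, while the rest of the arms stays between 73.7% and 80.4%. These starts hold 14 to 50 systemically activated peaks each and the rests 149 to 1209, so the start shares carry more counting error.

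Single arms lay far apart in sharing. An intact peak overlapped 96.3% of the 27 systemically activated start peaks on 6p, 96.2% of 26 on 11p and 95.8% of 48 on 1p. The shares were 66.7% of 15 on 10p, 59.1% of 22 on 9p and 46.7% of 30 on 12p. On 12p a blastema peak overlapped 83.3% of the 30 systemically activated peaks. Leaving out 12p moved the mean difference for systemically activated peaks in blastema to 5.44 points (permutation test, adjusted p = 0.0415). No other omission of an arm passed that test. All systemically activated start peaks were overlapped in blastema on 11 of the 14 arms, among them 2p with 1 peak and 13p with 4. The share over all systemically activated peaks of the p arms was 93.7%. The arms without full overlap were 8p (91.7%), 9p (95.5%) and 12p. In blastema, 38.7% of the 1p start peaks were overlapped by a limb list, against 15.3% in the rest of that arm, and the next arm was 6p with 22.7%.

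The start peaks of the 3 lists merged into 2455 regions. Blastema alone held 1946 of them, or 79.3%, against 83.8% in the rest of the p arms. Counted over peaks and not regions, 80.4% of blastema, 5.98% of intact and 2.11% of systemically activated start peaks were in no other list, against 85.4%, 10.1% and 5.68% of all p arm peaks of these lists. All 3 lists held 273, or 11.1%, against 7.20%. Blastema and intact limb without systemically activated limb held 162 (6.60% against 5.27%), and blastema and systemically activated limb without intact held 36 (1.47% against 1.59%). Intact limb alone held 29, systemically activated limb alone 7, and the limb lists without blastema 2. The 7 regions of systemically activated limb alone lay on 8p (3 regions) and 12p (4 regions). Regions of all 3 lists had a median width of 910 bases, against 300 bases for those of blastema alone. In the rest of the p arms these widths were 953 and 299 bases. A merged region is at least as wide as its widest peak. On 1p the regions of all 3 lists made up 47 of 174, or 27.0%, followed by 16.1% on 4p and 16.0% on 7p, and on 2p there was 1 of 25. Of the 5852 all-sample peaks in the starts, 61.0% (59.8 to 62.3) were overlapped by no group list, against 67.9% in the rest.

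The named peaks show the range of these patterns. The blastema peak of highest fold shared by all 3 lists was on 8p at 12573613 to 12574218. Its fold was 15.3 and its pileup 63, and its limb counterparts had folds of 10.8 in systemically activated and 10.3 in intact limb. A 6p peak at 18472948 to 18473502 followed with a fold of 13.6 and a pileup of 95, and then a 1p peak at 10983661 to 10984334 with a fold of 11.8. In systemically activated limb the leading shared peak was on 9p at 6558107 to 6558587 with a fold of 12.8. It was followed by 2 peaks of 8p, at 10049534 to 10050041 and at 6601961 to 6602433, with folds of 12.2 and 11.6. In intact limb 2 peaks of 1p led, at 5943214 to 5943773 with a fold of 12.2 and at 17813475 to 17813970 with a fold of 12.1, before one on 8p at 16169560 to 16170054 with a fold of 11.7. Folds depend on the depth of a list and were not compared between lists.

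Among peaks held by 1 list alone, folds reached 14.0 among 1946 blastema, 6.79 among 7 systemically activated and 6.54 among 29 intact peaks. These highest folds come from very unequal numbers of peaks and were not compared between lists. In blastema the highest fold among these, 14.0, was that of a 3p peak at 6736404 to 6736691, and the nearest intact peak was 41589 bases off. An 11p peak at 5698959 to 5699363 (fold 12.0) and a 6p peak at 13482039 to 13482358 (fold 11.4) came next. In systemically activated limb the first was on 8p at 4449613 to 4449839. Its fold was 6.79 and an intact peak lay 643 bases away. The others were both on 12p, at 13293095 to 13293376 with a fold of 5.77 and at 12427663 to 12427886 with a fold of 5.29. The intact ones were on 1p from 12780855 to 12781064, on 3p from 5592224 to 5592563 and on 8p from 1106728 to 1107181, each with a fold of 6.54. In the order named, pileups were 48, 48 and 40 in blastema, 10, 8 and 8 in systemically activated and 13, 9 and 9 in intact limb. Limb start peaks held by 1 list alone were weak calls, with a median −log10 q of 3.10 in systemically activated and 3.51 in intact limb.

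The widest peaks of each list all overlapped a peak of both other lists. In blastema they were on 4p from 4204301 to 4206718 (2418 bases), on 7p from 3158414 to 3160566 (2153 bases) and on 1p from 9358041 to 9360077 (2037 bases). The 4p peak spanned a systemically activated peak of 444 bases, from 4205790 to 4206233, and an intact peak of 267 bases, from 4204476 to 4204742, which did not overlap each other. In intact limb the widest was on 1p from 9966643 to 9968001 (1359 bases), followed by 7p from 4510108 to 4511372 and 7p from 3613219 to 3614457. The widest systemically activated peak was the counterpart of the 1p one, from 9966794 to 9967958 (1165 bases), followed by 5p from 16902048 to 16903183 and 6p from 8469366 to 8470460. The blastema peak at the 1p site was 1568 bases wide with a fold of 3.94. Of all start peaks, 11.3% of blastema, 56.3% of intact and 83.4% of systemically activated ones overlapped both other lists. Their median widths were 907, 533 and 416 bases, against 317, 268 and 222 for the other start peaks of these lists. A wider peak has more room for an overlap of 1 base.

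The densest 1 Mb bins of blastema were not those of the limb lists. They were on 11p between 5 and 6 Mb with 40 blastema peaks, on 8p between 12 and 13 Mb with 39, and on 6p between 16 and 17 Mb with 35. The 11p bin held 2 intact peaks and 1 systemically activated peak. In systemically activated limb the densest bin was on 7p between 3 and 4 Mb, with 8 peaks beside 15 blastema and 7 intact peaks, then 7p between 2 and 3 Mb and 12p between 5 and 6 Mb with 6 each. In intact limb it was on 1p between 19 and 20 Mb, with 8 peaks beside 12 blastema and 5 systemically activated peaks, then 4p between 13 and 14 Mb, 7p between 0 and 1 Mb, 7p between 3 and 4 Mb and 9p between 11 and 12 Mb, tied at 7 each.

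The lists began at different distances from base 1 of the arms, but they also differ in length, which these distances do not allow for. The starts held 2419 blastema, 485 intact and 332 systemically activated peaks. The first blastema peak started between 25.4 kb (14p) and 1196 kb (3p) from the arm start, with a median of 256 kb. The first intact peak started between 60.8 kb (7p) and 3739 kb (5p), with a median of 1884 kb, and the first systemically activated peak between 60.8 kb (7p) and 8016 kb (2p), with a median of 1991 kb. That 2p peak was the only systemically activated peak in its arm start. On 7 of 14 arms the first intact and the first systemically activated peak overlapped each other, and on 7p, 10p and 13p the first blastema peak overlapped the first peak of each limb list. Of the first peaks, 10 of 14 intact and 9 of 14 systemically activated ones were in all 3 lists, against 50.1% and 75.3% of all p arm peaks of those lists. Of the first blastema peaks 3 of 14 were in both limb lists, against 7.49%. The peak nearest the start on 7p ran from 60696 to 62021 in blastema (fold 7.83), from 60796 to 61991 in intact limb (fold 10.1) and from 60809 to 61803 in systemically activated limb (fold 9.35).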

How the data were processed

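ATAC-seq peak lists of 7 samples in 3 groups were used, grouped by their titles. The submitters' processing notes name Bowtie2 2.3.2, an aligner, and MACS2, a peak caller. For the genome build, the MACS2 version, duplicates and the Tn5 shift, nothing is given in the sources used here. As files the authors deposited 1 list per group and 1 for all samples, with a fold (a ratio of pileup to background), a −log10 p, a −log10 q and a score per peak. The deposited score was not used.

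Positions are 1-based on the deposited sequences. A segment runs to the start in the name of the next, and the last one to its last peak in any list. Pileup and background at summits were solved from fold and p with the MACS2 formulas, within a tolerance of 0.001. Overlaps, shares and the permutation tests were computed with Python 3.11.15, numpy 2.4.6, pandas 2.3.3 and scipy 1.17.1. Simulated data were used to check overlaps and the density test of start against rest, with a spread between arms set below the observed one. The tests of width, sharing, p against q and differences between lists were not simulated. Per-arm width and sharing needed at least 5 start peaks.

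The members, lists of results and tests were chosen with earlier results of these data known. Named peaks were, per list, the 3 of highest fold in both other lists, the 3 of highest fold in no other list, the 3 widest, the 3 densest 1 Mb bins and the peak nearest each arm start. Samples had no values of their own, so depth per sample is unknown and no sample could be left out.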

Additional observations from a re-analysis of the deposited data

How the results depend on the processing

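The 17 tested results were recomputed under 13 planned settings, each for the results it applies to, which gave 156 values, of which 144 kept their direction and stayed short of an adjusted p of 0.05. Under the all-sample setting that list stood in for each group list. Its density and width values are therefore repeated in the count for every group list. With a minimum fold of 5, by the permutation test, intact and systemically activated peaks had a larger gain of overlap in blastema at the starts, by 24.8 points (adjusted p = 0.0083) and 25.9 points (adjusted p = 0.00899). The same setting turned the density ratio of blastema minus systemically activated limb to 0.43 and that of blastema minus intact to 0.14. Against 20 to 40 Mb, blastema density was -0.050 and blastema width -0.028. Blastema width was also -0.075 with a minimum −log10 q of 5, and -0.054 with lists at the length of the shortest, which gave 0.041 for the ratio of blastema minus systemically activated limb. The ratio of systemically activated minus intact limb was 0.083 with a minimum −log10 q of 5. Without 2p and 13p, a setting chosen after seeing the data, it was 0.046, blastema width was 0.049, and p against q density was 1.15 in blastema, 1.95 in systemically activated and 1.58 in intact limb, with no test. Within deciles of −log10 q, sharing of systemically activated with intact peaks was -1.33 points and that of intact with systemically activated peaks -4.00 points. The cause of these changes was not tested.

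Leaving out 1 arm at a time gave blastema width from -0.00297 to 0.04, the ratio of systemically activated minus intact limb from -0.12 to 0.01, and p against q density from 0.55 to 1.03 in blastema, 1.11 to 1.71 in systemically activated and 0.93 to 1.43 in intact limb. Systemically activated width ran from 0.13 to 0.21 and passed the permutation test without 12p (adjusted p = 0.0415), and systemically activated sharing with blastema ran from 3.59 to 5.44 points.

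No paired analysis was possible because samples have no values of their own, and for the same reason no sample was left out. Arm starts with 1 to 4 systemically activated peaks gave no width or share, and the depth behind the lists is unknown.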
